A study of Mus musculus with 16 samples.

Results

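The comparison set clone 2 of TET2-WT C2C12 myoblasts against clone 1, a pair of clonal lines that carry the same labelled genotype. Its members were chosen by sample label and were 4 of the 16 libraries of the series, with 2 replicates of each clone, all taken at day 0, before differentiation was induced. Of 49585 annotated genes, 14459 passed a filter on low counts and were tested. Both clones were AMPK-/-, with Prkaa1 and Prkaa2 disrupted by CRISPR/Cas9, and both carried the FLAGBirA-TET2-WT knock-in, a Flag epitope and the biotin ligase BirA fused to the N-terminus of otherwise wild-type TET2 together with an EGFP coding sequence in exon 3 of Tet2. The study used them as the control for clones with the same tag and a phosphomimetic substitution (TET2-S97E), and stated no question about the difference between the clones themselves. Each clone is 1 line, so whatever set its founder cell apart and whatever happened to the line afterwards cannot be told apart. The labels do not say whether the replicates were separate cultures, so every p-value measures only the spread between these libraries, which may be technical. The 4 TET2-S97E libraries (2 clones with 2 replicates each) entered the same fit to share its estimate of the spread.

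C2C12 is an immortalized mouse myoblast line that divides in serum-rich medium and, when serum is withdrawn, leaves the cell cycle, turns on MYOD1 and MYOG target genes and fuses into myotubes. AMPK is a kinase that senses a fall in cellular energy, and its catalytic α subunits are encoded by Prkaa1 and Prkaa2. TET2 is a dioxygenase that oxidizes 5-methylcytosine and so takes part in removing DNA methylation.

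Guides for 2 of the edits that the clones share are shown because they define the cells, with the adjoining PAM, read from the transcript, in capitals. Prkaa1 was disrupted with commercial knockout and repair plasmids. The Tet2 site lies in coding sequence of exon 3 at chr3:133485656-133485675 and the Prkaa2 site in coding sequence of exon 4 at chr4:105051266-105051285 (GRCm38). Both guides have the sense of their gene, and both genes lie on the minus strand.
Tet2 guide: gaaagtgccaacagatatccAGG
Prkaa2 guide: acaggcatatggttgtccatAGG

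The libraries did not stand equally close to each other, which bears on every result. Total counts were 21456971 and 37790358 in clone 1 and 21436505 and 27394406 in clone 2. Replicate 2 of clone 2 stood apart from its partner. Across genes, the log2 CPM values of clone 2 replicate 1 correlated at 0.976 with replicate 2 and at 0.978 and 0.974 with the clone 1 replicates, which correlated at 0.991 with each other. Replicate 1 of clone 2 thus lay as close to clone 1 as to its own partner, a description only, since genes are not independent replicates. The partner's mitochondrially encoded transcripts took 2.14% of counts against 1.38% in replicate 1 and 1.14% and 1.00% in clone 1. The nuclear noncoding RNA Malat1 was at 1220 CPM (counts scaled to a common library size and for composition) there, against 292 in replicate 1 and 178 and 125 in clone 1, and Neat1, the scaffold of paraspeckles, was at 2510 CPM against 514, 369 and 359. Malat1 was also high in replicate 2 of both TET2-S97E clones, at 1082 and 737 CPM against 282 and 132 in their replicate 1. The part of this shift in the results was not tested. The median absolute log2 difference between replicates was 0.23 in clone 1 and 0.30 in clone 2, and that between the clones was 0.32. No replicate pair was a duplicate, since the counts of clone 1 and clone 2 replicates differed with a chi-square of 31.8 and 74.3 per degree of freedom.

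The clone 1 replicates differed along gene length and GC content. Replicate 2 minus replicate 1 of clone 1 fell from a median of 0.21 in the shortest of 10 bins of genes (median exon length 784 bases) to -0.27 in the longest (11995 bases), and rose from -0.22 at 39.3% GC to 0.28 at 59.6% GC. In clone 2 the same difference ran from -0.01 to 0.13 along length and from -0.09 to 0.24 along GC content. The clone difference itself ran from -0.21 to 0.29 along length, and stayed within -0.07 and 0.09 along GC content.

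**Figure D1:**
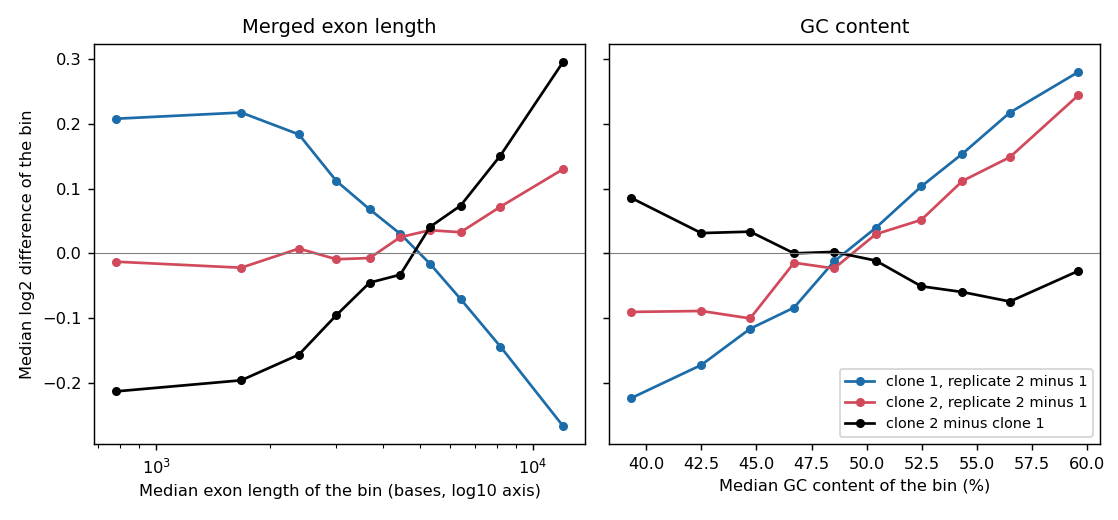
Median log2 difference in 10 bins of genes by merged exon length (left, log10 axis, bases) and by GC content (right, percent), for replicate 2 minus 1 of clone 1 (blue), replicate 2 minus 1 of clone 2 (red) and clone 2 minus clone 1 (black). The blue line falls with length from 0.21 to -0.27 while the black line rises from -0.21 to 0.29.

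The edited genes were still transcribed and did not separate the clones by the test. Prkaa1 (ENSMUSG00000050697.8, chr15:5143861-5181899) was at 94.0 and 75.8 CPM in clone 1 and at 103.9 and 92.3 CPM in clone 2, and the clones overlapped. Prkaa2 (ENSMUSG00000028518.8, chr4:105029874-105109890) had 16 and 28 counts in clone 1 and 30 and 46 in clone 2. A gene with a small insertion or deletion is still counted, so these values do not check the knockout. Tet2 (ENSMUSG00000040943.12, chr3:133463679-133545139) was at 34.4 and 22.6 CPM in clone 1 and 58.4 and 56.2 CPM in clone 2, a log2 difference of 1.01 ± 0.43 (SE). The adjusted p was 0.231 in edgeR's quasi-likelihood test with Benjamini-Hochberg adjustment and 0.0875 in DESeq2, although the clones did not overlap. The TET2-S97E libraries were lower than clone 2 for Tet2, at 12.9, 21.9, 7.89 and 22.1 CPM. Tet1 and Tet3 differed by 0.58 and 0.94 on the log2 scale, with adjusted p of 0.348 and 0.187. After a loess correction for exon length and GC content the differences were 0.63 for Tet2, 0.21 for Tet1 and 0.47 for Tet3, and without replicate 2 of clone 2 they were 1.04, 0.21 and 0.55.

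Across all genes, 67 were higher in clone 2 and 57 lower at an adjusted p under 0.05 in edgeR's quasi-likelihood test, or 0.858% of the genes tested, and 2957 genes had an unadjusted p under 0.05. These shares, 0.463% higher and 0.394% lower, are the background against which the gene lists are read below. Of the 124, 121 were protein-coding and all 124 had non-overlapping clones, as did 53.8% of all genes tested. The median absolute log2 difference of the called genes was 1.74. For 1 gene at a time, 2 libraries against 2 allow no two-sided p under 0.333 in an exact permutation test, so the calls rest on the spread that the fit shares across genes. How many genes passed rested on single libraries. Without replicate 1 of clone 1 the fit called 2 genes, without replicate 2 of clone 1 it called 0 (1071 with an unadjusted p under 0.05), without replicate 1 of clone 2 it called 113 higher and 27 lower, and without replicate 2 of clone 2 it called 23 higher and 4 lower. DESeq2 called 507 higher (3.51%) and 387 lower (2.68%). The 2 were Ephb2 and Capn6, so each of the 124 calls was lost without replicate 2 of clone 1, and every one but these without replicate 1 of clone 1. In each of these fits all 124 genes kept the direction given here. Called genes followed the slope with exon length, with a median exon length of 6718 bases among those higher, 3464 bases among those lower and 4058.5 bases among the rest. With each library corrected for both properties, 74 genes were higher and 85 lower, and 116 of the 124 remained called. This loess correction moved the median over all genes to -0.07, beside which medians after the correction are read below. Along exon length it still ran from -0.24 in the shortest bin to -0.02 in the longest.

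**Figure D2:**
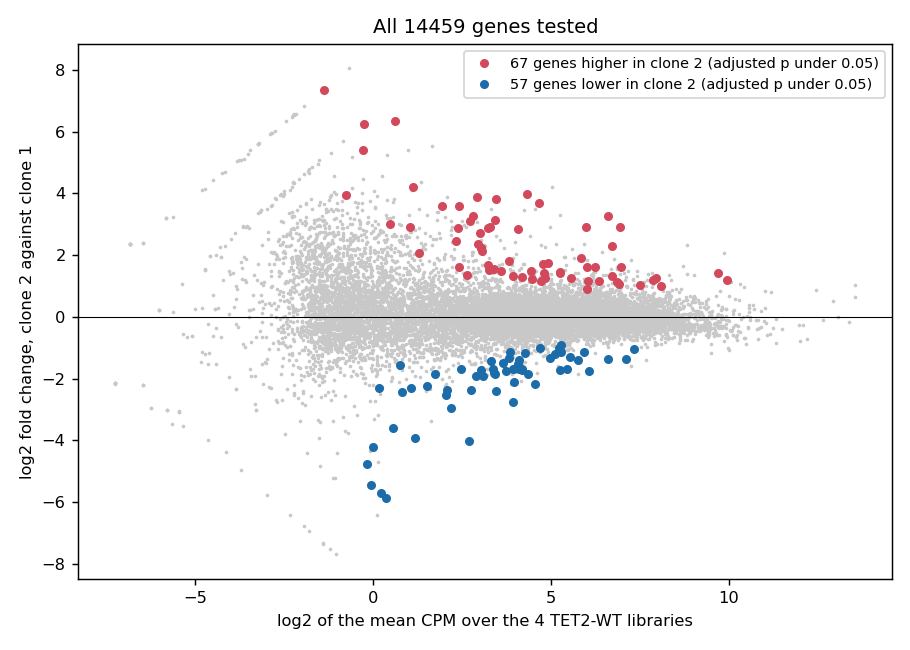
Each point is a gene; the x axis gives the log2 of its mean CPM over the 4 TET2-WT libraries and the y axis its fitted log2 fold change in clone 2 against clone 1. Red points are the 67 genes called higher and blue points the 57 called lower.

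The 12 protein-coding genes highest in clone 2 by fold, among those called and with at least 100 counts in each of its libraries, included secreted, membrane and matrix genes. Fibin, a secreted protein gene (ENSMUSG00000074971.4, chr2:110360917-110363183), was at 2.58 and 2.17 CPM in clone 1 and 36.9 and 38.5 CPM in clone 2. The replicates lay close together and far from the other clone, a 15.9-fold difference (log2 3.99 ± 0.37 SE, adjusted p = 0.0049 in edgeR). Ephb2, a receptor tyrosine kinase for ephrin-B ligands (ENSMUSG00000028664.14, chr4:136647539-136835988), was at 0.907 and 1.01 CPM in clone 1 and 15.0 and 13.2 CPM in clone 2, a 14.6-fold difference with an adjusted p of 0.00055. Capn6, an X-linked calpain family member without protease activity (ENSMUSG00000067276.5, chrX:143802231-143827414), was at 1.95 and 1.03 CPM in clone 1 and 21.3 and 20.1 CPM in clone 2, and at 0.252 and 0.227 CPM in TET2-S97E clone 1 and 17.3 and 20.3 CPM in TET2-S97E clone 2. Colec12, a collectin-family scavenger receptor on chromosome 18, was at 18.6 and 18.3 CPM in clone 1 and 181 and 173 CPM in clone 2. For these genes the clones lay much farther apart than the replicates.

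The other genes of the 12 leading higher were Postn, Thsd4, Kcnj15, Kcnab2, Acpp, C1qtnf3, Col1a1 and Fndc1, with log2 differences between 3.69 and 2.90. Periostin (Postn), a matricellular protein of remodelling tissue, was at 4.58 and 2.89 CPM in clone 1 and 29.0 and 65.7 CPM in clone 2. Replicate 2 of clone 2 was the higher of the pair for Postn, Kcnj15, Kcnab2, C1qtnf3 and Col1a1, and without that library their adjusted p rose to between 0.0594 and 0.171, with log2 differences of 2.98 for Postn and 2.15 for C1qtnf3. Acpp and Fndc1 were instead higher in replicate 1. Capn6, Ephb2, Fibin, Thsd4, Colec12, Acpp and Fndc1 passed the threshold without replicate 2 of clone 2. Of all 24 genes named by size, Ephb2 and Capn6 passed without replicate 1 of clone 1 and none without replicate 2 of clone 1.

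The 12 genes lower in clone 2 by the same rule led with Kcnj16, an inward-rectifier potassium channel subunit (ENSMUSG00000051497.15, chr11:110968033-111027968). It was at 13.7 and 11.0 CPM in clone 1 and 0.458 and 1.03 CPM in clone 2, 16.1-fold lower (adjusted p = 0.00783). Its log2 difference was -4.01, with -4.74 without replicate 2 of clone 2 and -3.59 without replicate 1. In the TET2-S97E clones Kcnj16 was at 0.403 and 0.194 CPM in clone 1 and 35.5 and 59.9 CPM in clone 2. Each genotype thus held a high and a low clone. Outside the 12, because its counts were lower, Ly6a, the surface antigen Sca-1 and a gene of the fibroblast and progenitor list given below (ENSMUSG00000075602.10, chr15:74994877-74998031), had 86 and 176 counts in clone 1 and 7 and 7 in clone 2, a log2 difference of -3.91 ± 0.38 (SE), and remained called without replicate 2 of clone 2 (adjusted p = 0.039) but not without replicate 1 or 2 of clone 1 (0.118 and 0.15). Occludin (Ocln), a tight-junction protein gene, was at 8.12 and 8.02 CPM in clone 1 and 0.916 and 1.14 CPM in clone 2. Itgb4, the integrin β4 chain of hemidesmosomes, was at 16.7 and 20.2 CPM and at 3.76 and 3.23 CPM. The others of the 12 were Gpnmb, Serpina3n, Acy3, Tnfrsf9, Cst6, Ppp2r2b, AU021092, Cep55 and Birc5, with log2 differences from -2.74 to -1.86. Without replicate 2 of clone 2, 11 of these 12 genes missed the threshold and Kcnj16 passed it (adjusted p = 0.0168).

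**Figure D3:**
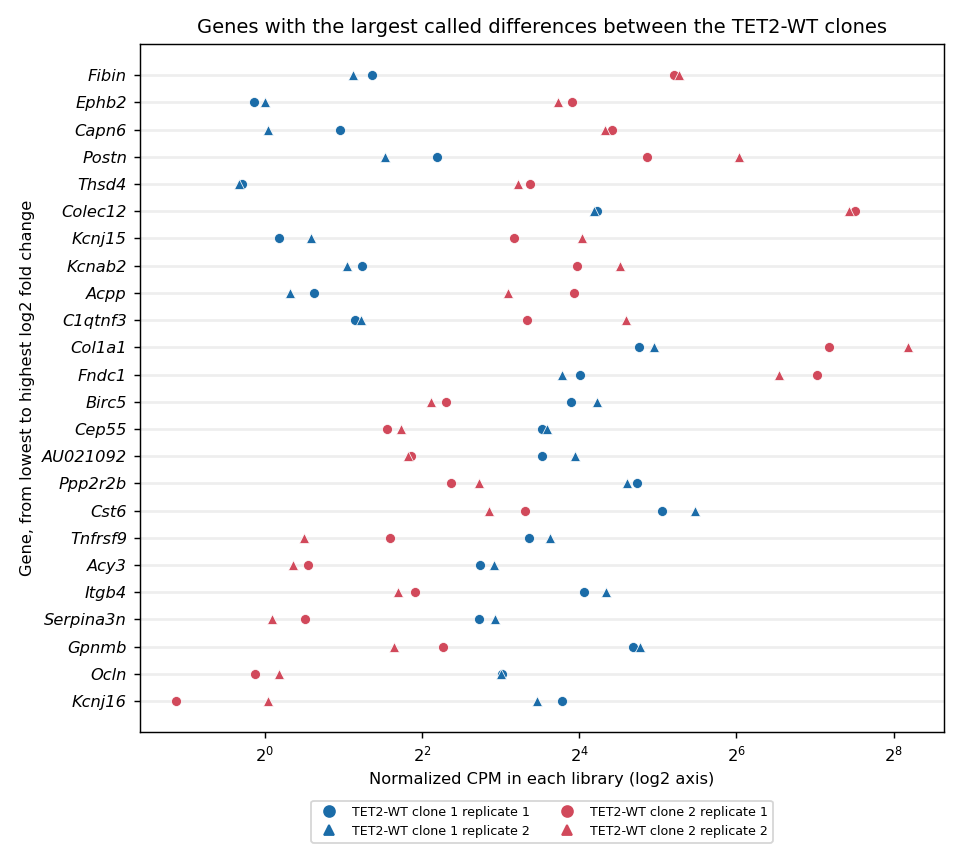
Normalized CPM (log2 axis) of the 24 genes named by size of difference, with clone 1 in blue, clone 2 in red, circles for replicate 1 and triangles for replicate 2. Blue and red do not overlap for any of these 24 genes, which the rule for naming them required.

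Mitosis and spindle genes had lower fitted values in clone 2 throughout. All 30 genes of the list were tested and all 30 had a lower fitted value in clone 2, with a median log2 difference of -1.46 beside a median of 0.00 over all genes and a range from -1.86 to -0.81. The test called 6 of them lower, or 6 of 30 against 0.394% of all genes, and none higher. Cdc20, the activator of the anaphase-promoting complex (ENSMUSG00000006398.15, chr4:118432901-118437352), was at 29.2 and 35.5 CPM in clone 1 and 9.53 and 8.52 CPM in clone 2, 3.59-fold lower (log2 -1.85 ± 0.30 SE, adjusted p = 0.0338). Birc5, the survivin subunit of the chromosomal passenger complex, was at 14.9 and 18.7 CPM in clone 1 and 4.95 and 4.33 CPM in clone 2. Cenpa, the histone H3 variant of centromeres, was at 23.5 and 27.0 CPM and at 7.70 and 9.72 CPM. The mitotic kinase genes Plk1 and Cdk1 and the cyclin gene Ccnb2 were also called, with log2 differences of -1.49, -1.13 and -1.74. The smallest difference of the list was that of the checkpoint kinase gene Ttk, at 7.30 and 7.20 CPM in clone 1 and 4.40 and 3.90 CPM in clone 2. Outside the list, and chosen after their values were seen, further cell cycle genes were also called lower. They were Cep55, Asf1b, Pimreg, Dlgap5, Knstrn, Ube2c and Cdca8, with log2 differences from -1.91 for Cep55 to -1.44 for Cdca8.

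Summed over the list, mitosis and spindle transcripts were at 804 and 745 CPM in clone 1 and at 313 and 312 CPM in clone 2, so the replicates of each clone nearly coincided. The TET2-S97E libraries spread more widely, at 1161 and 619 CPM in clone 1 and 1512 and 1103 CPM in clone 2. DESeq2 called 29 of the 30 genes lower. The edgeR fit called none of the 30 when any of the 4 TET2-WT libraries was left out, while the median of the list stayed between -1.45 and -1.39 and all 30 genes had an unadjusted p under 0.05 in the full fit. These libraries hold RNA from whole cultures, so fewer dividing cells and less mitotic RNA per cell cannot be told apart. Among 33 DNA replication genes, 31 had a lower fitted value with a median of -0.52. None was called by edgeR and 7 were called lower by DESeq2, against 2.68% of all genes. An unadjusted p under 0.05 was found for 13, against 2957 of all 14459 genes. The edgeR count rose to 5 lower with the TET2-WT libraries alone and to 7 with no filter on low counts. Cdc6, which loads the replicative helicase, was at 4.22 and 5.48 CPM in clone 1 and 2.02 and 1.70 CPM in clone 2 (adjusted p = 0.0826).

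The promoters of the 6 called mitotic genes are shown because genes of this group are known for short motifs near their start. Promoter windows run from 250 bases before to 50 bases after a gene's start, on its strand, from RefSeq (GRCm38.p6). The cell cycle genes homology region TTTGAA and the CCAAT box, the letters searched on both strands, which can share an end letter, are in capitals, also where they are read on the opposite strand. TTTGAA lay in 21 of the 28 windows of the 26 list genes with a window, or 75%, against 17.9% of 32851 mouse windows. CCAAT lay in 75% of them against 37.4% of all windows. Of the 6 windows shown, that of Birc5 held neither motif and the others held both. A match is a run of letters and was not tested for binding.
Cdc20 (chr4:118437294-118437593, minus strand): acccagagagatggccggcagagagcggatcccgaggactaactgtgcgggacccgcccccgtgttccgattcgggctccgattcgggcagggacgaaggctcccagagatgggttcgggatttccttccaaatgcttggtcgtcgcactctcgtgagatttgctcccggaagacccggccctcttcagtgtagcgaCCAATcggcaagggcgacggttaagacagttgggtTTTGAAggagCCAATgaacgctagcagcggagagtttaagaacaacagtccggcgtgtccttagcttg
Ccnb2 (chr9:70421505-70421804, minus strand): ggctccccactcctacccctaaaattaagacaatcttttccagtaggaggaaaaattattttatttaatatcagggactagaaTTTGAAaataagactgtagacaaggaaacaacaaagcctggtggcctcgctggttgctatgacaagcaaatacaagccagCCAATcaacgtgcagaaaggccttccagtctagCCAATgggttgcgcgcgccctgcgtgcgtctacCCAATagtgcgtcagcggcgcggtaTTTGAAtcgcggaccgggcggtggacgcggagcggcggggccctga
Plk1 (chr7:122159185-122159484, plus strand): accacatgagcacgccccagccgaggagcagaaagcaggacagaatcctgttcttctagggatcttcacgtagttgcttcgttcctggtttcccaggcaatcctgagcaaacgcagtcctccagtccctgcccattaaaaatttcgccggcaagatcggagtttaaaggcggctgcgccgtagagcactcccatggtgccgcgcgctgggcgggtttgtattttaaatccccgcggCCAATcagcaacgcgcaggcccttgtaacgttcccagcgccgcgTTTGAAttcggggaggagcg
Birc5 (chr11:117848987-117849286, plus strand): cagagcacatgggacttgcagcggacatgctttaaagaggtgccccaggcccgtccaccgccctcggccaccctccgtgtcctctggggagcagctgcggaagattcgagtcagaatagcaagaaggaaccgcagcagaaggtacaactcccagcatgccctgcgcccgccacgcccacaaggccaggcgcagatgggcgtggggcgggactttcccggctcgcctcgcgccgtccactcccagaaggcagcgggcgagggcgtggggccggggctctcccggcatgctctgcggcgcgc
Cenpa (chr5:30666636-30666935, plus strand): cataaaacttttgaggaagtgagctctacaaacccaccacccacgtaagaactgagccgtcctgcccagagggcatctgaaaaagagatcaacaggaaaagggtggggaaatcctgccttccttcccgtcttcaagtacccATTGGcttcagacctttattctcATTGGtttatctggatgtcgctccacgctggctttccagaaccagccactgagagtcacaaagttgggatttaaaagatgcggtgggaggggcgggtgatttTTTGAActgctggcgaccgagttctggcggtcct
Cdk1 (chr10:69352863-69353162, minus strand): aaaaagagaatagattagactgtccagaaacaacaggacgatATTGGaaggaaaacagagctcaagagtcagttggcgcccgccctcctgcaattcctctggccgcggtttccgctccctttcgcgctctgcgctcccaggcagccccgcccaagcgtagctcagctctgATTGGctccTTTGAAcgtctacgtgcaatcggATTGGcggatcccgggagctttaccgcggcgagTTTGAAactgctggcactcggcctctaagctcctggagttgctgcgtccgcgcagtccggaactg

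Genes of cholesterol biosynthesis also had mostly lower fitted values in clone 2. Of 23 tested, 22 had a lower fitted value and 1 a higher, with a median of -0.90, and the test called 2 lower. Cyp51, the lanosterol demethylase (ENSMUSG00000001467.5, chr5:4081145-4104746), was at 65.0 and 66.4 CPM in clone 1 and 29.4 and 24.1 CPM in clone 2 (log2 -1.30 ± 0.22 SE, adjusted p = 0.0344). Fdft1, squalene synthase, was at 47.1 and 53.4 CPM and at 24.4 and 25.3 CPM (adjusted p = 0.036). The summed level of the list was 1110 and 1106 CPM in clone 1, 723 and 632 CPM in clone 2, and between 2487 and 3239 CPM in the 4 TET2-S97E libraries, so clone 2 was the lowest of the 4 clones and clone 1 the next. DESeq2 called 13 of the 23 lower. Neither gene was called in edgeR when any of the 4 TET2-WT libraries was left out. The list then held 3 calls without replicate 1 of clone 2, all of other genes, and 0 without each of the other libraries. Among 20 glycolysis and glucose uptake genes the median was -0.49 and none was called (12 with an unadjusted p under 0.05, 4 called lower by DESeq2). Phosphoglycerate kinase (Pgk1) had the lowest p of them, at 976 and 1062 CPM in clone 1 and 481 and 417 CPM in clone 2 (adjusted p = 0.0766).

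Extracellular matrix genes had mostly higher fitted values in clone 2. Of 17 collagen chain genes, 15 had a higher fitted value, the median was 0.66 and 2 were called by edgeR. An unadjusted p under 0.05 was found for 11 in edgeR, and DESeq2 called 8 higher. Col1a1, the α1 chain of type I collagen (ENSMUSG00000001506.10, chr11:94936224-94953042), was at 27.1 and 30.9 CPM in clone 1 and at 145 and 290.1 CPM in clone 2, a 7.51-fold difference whose size differed between the replicates. Col5a2, a type V chain, was at 633 and 574 CPM and at 1288 and 1499 CPM (log2 1.21 ± 0.16 SE, adjusted p = 0.0157). Both lost their call without replicate 2 of clone 2 and without either library of clone 1. Type III collagen (Col3a1) was at 9569 and 9278 CPM in clone 1 and 14048 and 15634 CPM in clone 2, and did not pass (adjusted p = 0.0938).

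Of 27 matrix glycoprotein and proteoglycan genes, 23 had a higher fitted value, with a median of 0.63, and 5 were called higher, against 0.463% of all genes: Postn, Fbn1, Fbln5, Lum and Ogn. Fibrillin-1 (Fbn1), the backbone of microfibrils, was at 68.5 and 53.5 CPM in clone 1 and 161 and 216 CPM in clone 2. Fibulin-5 (Fbln5), which binds elastic fibres, was at 13.3 and 14.9 CPM and at 53.9 and 40.4 CPM, and remained called without replicate 2 of clone 2 (adjusted p = 0.0272), the only gene of the list to do so. Without replicate 1 or 2 of clone 1 its adjusted p was 0.167 and 0.333, and the list went from 5 calls to 0. DESeq2 called 12 of the 27 higher. The clone difference grew with exon length, as given above. After a loess correction of the libraries for GC content and exon length the medians were 0.47 for collagens and 0.50 for glycoproteins and proteoglycans, with the same numbers of calls. The median over all genes was -0.07 after this correction. Matrix metalloproteinase and TIMP genes had a median of -0.07, and none of 14 was called by edgeR (2 with an unadjusted p under 0.05, 1 called higher by DESeq2). Their median was -0.24 without replicate 2 of clone 2 and -0.03 without replicate 2 of clone 1. Mmp2 was at 1.36 and 1.56 CPM in clone 1 and 8.80 and 6.99 CPM in clone 2 (adjusted p = 0.093).

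Markers of fibroblasts and mesenchymal progenitors, which also make these matrix proteins, were measured beside them. Of 13 markers, 10 were tested, 6 had a higher and 4 a lower fitted value, and the median was 0.37, or 0.22 after the loess correction and 0.23 without replicate 1 of clone 2. Their summed level was 811 and 744 CPM in clone 1 and 1227 and 1240.1 CPM in clone 2. Pdgfrb was their most abundant gene. Lum, the proteoglycan lumican, was called higher and Ly6a lower. Thy1, Dpp4 and Tcf21 had at most 1 count in any TET2-WT library. The part of such cells in the matrix result was not tested.

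**Figure D4:**
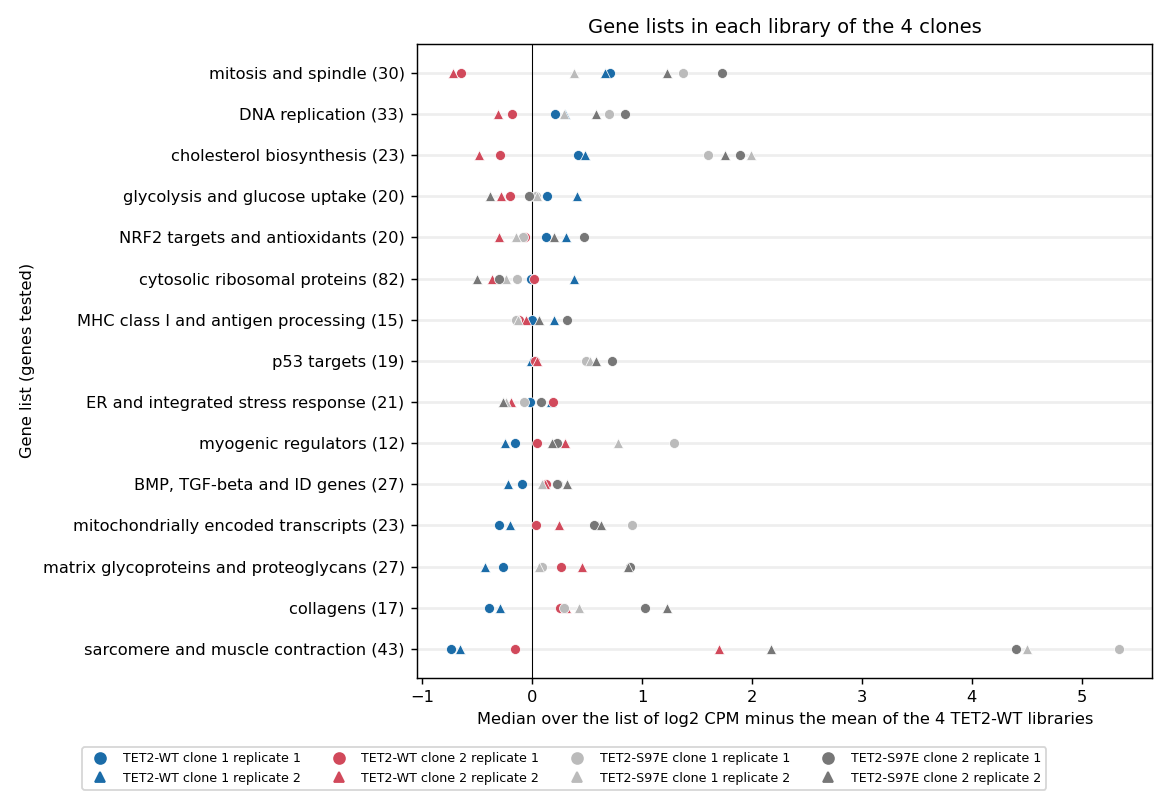
For 15 gene lists, the median over the list of each gene's log2 CPM minus its mean over the 4 TET2-WT libraries, with TET2-WT clone 1 in blue, clone 2 in red and TET2-S97E libraries in grey. Red lies left of blue for mitosis and spindle (-0.65 and -0.72 against 0.71 and 0.66), and the single red triangle at 1.70 for sarcomere genes is replicate 2 of clone 2.

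The myoblast identity genes gave a mixed result. Myod1, the myoblast determination factor (ENSMUSG00000009471.4, chr7:46376474-46379099), was at 7.16 and 10.4 CPM in clone 1 and 18.0 and 26.0 CPM in clone 2, and was called higher (log2 1.32 ± 0.23 SE, adjusted p = 0.0388). Without replicate 2 of clone 2 the difference was 1.03 and the adjusted p 0.171, and the call was also lost without either library of clone 1. The TET2-S97E clones were at 147 and 144 CPM and at 27.6 and 29.1 CPM. Myf5, the other early myogenic factor, was at 34.1 and 34.7 CPM in clone 1 and 25.4 and 23.1 CPM in clone 2 and did not pass (log2 -0.51, adjusted p = 0.296). Lbx1, a homeobox gene of migrating muscle precursors, was called lower, at 4.13 and 5.35 CPM and at 1.05 and 0.958 CPM (adjusted p = 0.0307). It lost the call without replicate 1 or 2 of clone 1 (0.167 and 0.394) and without replicate 1 or 2 of clone 2 (0.0574 and 0.143). Pax7, which marks satellite cells, had 1 and 6 counts in clone 1 and 1 and 2 in clone 2, against 42 to 323 counts in the TET2-S97E libraries, and no difference between the TET2-WT clones was detectable at this depth. Myf6 had at most 5 counts in any TET2-WT library and was not tested. Over the 12 myogenic regulators tested the median was 0.35, and 0.15 without replicate 2 of clone 2. The myoblast markers Des, Cdh15 and Itga7 were abundant in both clones, with log2 differences of 0.01, -0.32 and 0.21, none of them called. Of 11 myoblast and satellite cell surface genes tested, 5 had a higher and 6 a lower fitted value, with a median of -0.03. Cdon, at 160 and 124 CPM in clone 1 and 329 and 326 CPM in clone 2, and Boc were called higher. These 2 genes of the list are partner receptors that promote myogenesis. Both lost the call when any of the 4 TET2-WT libraries was left out, with adjusted p from 0.0622 to 0.509 for Cdon and from 0.0536 to 0.511 for Boc.

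Among the 4 TET2-WT libraries, genes of terminal muscle differentiation were highest in replicate 2 of clone 2, and their median was higher still in the TET2-S97E libraries. Relative to the TET2-WT mean, the median log2 level of the sarcomere and contraction list was -0.74 and -0.66 in clone 1, -0.15 and 1.70 in clone 2, and 5.34, 4.50, 4.41 and 2.18 in TET2-S97E clones 1 and 2. Myogenin (Myog), the factor that commits myoblasts to fuse (ENSMUSG00000026459.5, chr1:134289989-134292548), had 9 and 24 counts in clone 1 and 46 and 390 in clone 2. Replicate 2 of clone 2 was far above the other TET2-WT libraries, and the TET2-S97E clones were at 141 and 179 CPM and at 56.7 and 42.0 CPM. The log2 difference was 3.89 ± 0.79 (SE) with an adjusted p of 0.0622. It was 1.94 without replicate 2 of clone 2 (adjusted p = 0.116) and 4.65 without replicate 1 (adjusted p = 0.00075). Myog also passed the threshold with the loess correction (adjusted p = 0.0497), the TET2-WT libraries alone (0.00169), no filter on low counts (3.84e-38) and DESeq2 (0.0015). The fit with no filter took the spread wholly from all genes together. Its p-values and calls therefore leave out how far a gene's own replicates lay apart, which for Myog was far. Skeletal α-actin (Acta1) followed, with 59 and 148 counts in clone 1 and 284 and 3126 in clone 2, and so did titin (Ttn), at 3.76 and 2.67 CPM and at 4.26 and 65.9 CPM. Of 43 sarcomere and contraction genes, 39 had a higher fitted value with a median of 2.49, none was called by edgeR (20 with an unadjusted p under 0.05) and 5 were called higher by DESeq2. The edgeR count rose to 6 higher without replicate 1 of clone 2, 19 with the TET2-WT libraries alone and 27 with no filter on low counts. The median was 0.77 without replicate 2 of clone 2 and 3.11 without replicate 1. The myosin gene Myh1 had 0 and 1 counts in clone 1 and 1 and 7 in clone 2. Insulin-like growth factor 2 (Igf2), induced in differentiating myoblasts, had the same pattern among the TET2-WT libraries but not in the TET2-S97E clones. It had 183 and 251 counts in clone 1 and 297 and 2760 in clone 2 (adjusted p = 0.0917 in edgeR and 0.0263 in DESeq2). Its log2 difference was 2.91, with 0.87 without replicate 2 of clone 2 and 3.71 without replicate 1. Igf2 was at 98.0 CPM in replicate 2 of TET2-WT clone 2. It was at 38.0 and 35.8 CPM in TET2-S97E clone 1 and at 612 and 549 CPM in TET2-S97E clone 2.

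Imprinted and germline genes are classic targets of DNA methylation, the mark that TET2 oxidizes. Of 25 imprinted genes, 16 had a higher fitted value, with a median of 0.52. An unadjusted p under 0.05 was found for 11, against 2957 of all 14459 genes. The median of the imprinted genes was 0.27 and 0.87 without replicate 1 or 2 of clone 1, and 0.65 and 0.21 without replicate 1 or 2 of clone 2. It was 0.27 with the TET2-WT libraries alone and 0.09 with at least 10 counts required in every TET2-WT library. DESeq2 called 7 higher and edgeR 1, Plagl1, a zinc finger gene expressed from the paternal allele (ENSMUSG00000019817.18, chr10:13060504-13131694). It was at 3.54 and 2.25 CPM in clone 1 and 13.2 and 13.7 CPM in clone 2 (log2 2.23 ± 0.32 SE, adjusted p = 0.0223). Its adjusted p was 0.167 and 0.393 without replicate 1 or 2 of clone 1, and 0.0347 and 0.0754 without replicate 1 or 2 of clone 2. The TET2-S97E clones lay at 9.77 and 6.35 CPM and at 2.73 and 2.25 CPM. Of 22 germline genes that somatic cells silence by DNA methylation, 4 were tested and 2 called in opposite directions. The X-linked homeobox gene Rhox5 was higher, at 2.22 and 3.52 CPM in clone 1 and 13.7 and 13.6 CPM in clone 2, and Magea3 lower, at 8.98 and 8.05 CPM and at 2.38 and 2.87 CPM. Neither call held when any of the 4 TET2-WT libraries was left out, with adjusted p from 0.0544 to 0.393 for Rhox5 and from 0.0891 to 0.434 for Magea3. Both belong to gene families with related members, so the assignment of their reads may be uncertain, which was not tested. None of 13 DNA methylation enzymes and readers was called by edgeR (5 with an unadjusted p under 0.05), and DESeq2 called 1 in each direction. Uhrf1, the hemimethylated-DNA reader that recruits DNMT1 in S phase, was at 29.7 and 30.2 CPM in clone 1 and 15.1 and 16.2 CPM in clone 2 (adjusted p = 0.105). Dnmt1 had a log2 difference of 0.29.

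Among the other lists, calls were few. Of 27 BMP, TGF-β and ID genes, DESeq2 called 4 higher and edgeR 1, Tgfb2, a ligand of the TGF-β family. The edgeR count was 3 with the TET2-WT libraries alone and 3 with no filter on low counts. Tgfb2 was at 6.48 and 6.14 CPM in clone 1 and 29.0 and 15.7 CPM in clone 2, with an adjusted p of 0.0338 in edgeR. Its adjusted p was 0.196 and 0.486 without replicate 1 or 2 of clone 1, and 0.0508 and 0.0168 without replicate 1 or 2 of clone 2. In the other lists edgeR called no gene: fusion, smooth muscle, interferon-stimulated, MHC class I, chemokine, p53 target, ER stress, NRF2 target, AMPK subunit, Notch, IGF, cadherin, Wnt, nuclear noncoding RNA, HOX, protocadherin, histone, cytosolic ribosomal protein and mitochondrially encoded genes. With the sarcomere, DNA replication, glycolysis, metalloproteinase and DNA methylation lists these made 24 lists with 523 tested genes, each counted once. Of the 523, 142 had an unadjusted p under 0.05, against 2957 of all 14459 genes. DESeq2 called 46 of the 523, against 3.51% of all genes called higher and 2.68% lower. Other edgeR fits called 59 of them with the TET2-WT libraries alone, 100 with no filter on low counts, 14 without replicate 1 of clone 2, and 1 each with the loess correction and with DESeq2 size factors. That 1 was Cx3cl1, a membrane-bound chemokine gene of the chemokine list (adjusted p = 0.0545, and 0.0319 after the loess correction). Cytosolic ribosomal protein genes were below 0 in 81 of 82 with a median of -0.36, but in the 4 libraries the medians relative to the TET2-WT mean were -0.01 and 0.38 in clone 1 and 0.02 and -0.37 in clone 2, so replicate 1 of each clone lay at nearly the same level. Leaving out 1 library at a time moved the median between -0.57 without replicate 1 of clone 2 and -0.14 without replicate 2 of clone 1. Mitochondrially encoded transcripts had a median of 0.36, and of 0.22 without replicate 2 of clone 2. After the loess correction it was -0.11, beside -0.07 over all genes. Clustered protocadherins had a median of 0.65 and 28 of 33 above 0, with 9 at an unadjusted p under 0.05, against 2957 of all 14459 genes. NRF2 targets had a median of -0.42 with 17 of 20 below 0, and of -0.26 without replicate 2 of clone 2.

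Markers of cell types foreign to a myoblast culture differed in level between lists. Ptprc, the leukocyte antigen CD45, and Epcam, an epithelial adhesion gene, had at most 1 count in any TET2-WT library, and Pecam1 at most 6. Endothelial markers summed to 7.53 and 6.96 CPM in clone 1 and 4.86 and 2.24 CPM in clone 2, and blood cell markers to 4.94 and 6.17 CPM and to 3.53 and 3.19 CPM. Epithelial markers summed to 30.6 and 42.7 CPM in clone 1 and 14.4 and 20.2 CPM in clone 2, nearly all of it Krt19, at 27.7 and 38.3 CPM and at 14.1 and 16.7 CPM (adjusted p = 0.2). Neural markers were at 3.71 to 5.48 CPM, adipocyte markers at 106 to 127 CPM and bone and cartilage markers at 122 to 156 CPM in the 4 libraries, with Cebpa and Sox9 their most abundant genes. Pparg, the adipocyte regulator, had 411 and 731 counts in clone 1 and 217 and 339 in clone 2, while Adipoq, made by mature adipocytes, had at most 6, and Bglap and Acan of bone and cartilage had at most 3 and 1. The part of such cells in the results was not tested. No gene of these 6 lists was called by edgeR and DESeq2 called 1. An unadjusted p under 0.05 was found for 7 of 20 tested, against 2957 of all 14459 genes. In edgeR 2 were called lower with the TET2-WT libraries alone, 5 with no filter on low counts and 1 with the stricter filter.

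Genes nearly silent in one clone were few. With at most 3 counts in each library of 1 clone and at least 20 in each of the other, a rule chosen after the values were seen, 5 genes were nearly silent in clone 1 and 11 in clone 2, and with at least 100 counts in the other clone there was none. The test called Ano5, Tmc3 and Sorbs2 higher in clone 2 and Serpinb7, Auts2, Mgam, Wdfy4 and Gm15097 lower, and none of the others. Sorbs2, an adaptor of the actin cytoskeleton, had 0 and 2 counts in clone 1 and 65 and 88 in clone 2, a ratio of 91.5 with a 95% counting interval from 24.9 to 762. Tmc3, a gene of the TMC channel family, had 1 and 0 counts in clone 1 and 35 and 49 in clone 2. Serpinb7 had 57 and 96 counts in clone 1 and 0 and 2 in clone 2, and Wdfy4 48 and 92 and 0 and 2. Auts2 had 40 and 62 counts in clone 1 and 0 and 3 in clone 2, a ratio of 28.4 (9.46 to 140.1), and 42 to 357 counts in the TET2-S97E libraries. Phospholamban (Pln) had 20 and 31 counts in clone 1 and none in clone 2, at least 14.2-fold lower against a floor of 3 counts over the clone, and Serpinb9f was at least 16.4-fold lower, with adjusted p of 0.185 and 0.0601. Serpinb9e, Serpinb9f and Serpinb9g, genes of 1 family on chromosome 13, were all among these genes, and none of them was called. Intervals and floors cover counting error only.

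Differences in level also ran along chromosomes, although they were small. The median log2 difference was 0.18 on chromosome 8 (780 genes) and 0.18 on chromosome 9 (815 genes), and -0.22 on chromosome 19 (486 genes), -0.20 on the X (467 genes) and -0.15 on chromosome 11 (1182 genes). On chromosome 9, 64.9% of genes lay above 0, against 49.6% of all genes tested. Of its 815 genes, 12 were called higher and 1 lower, against 0.463% and 0.394% of all genes. Those higher included Gramd1b, Ei24 and Fez1, a kinesin adaptor gene. Fez1 was at 23.1 and 25.1 CPM in clone 1 and 99.4 and 83.3 CPM in clone 2. On chromosome 19, 32.5% lay above 0, and 5 of its 486 genes were called lower (Acy3, Cep55, Cst6, Lbx1 and Acsl5), against 0.394% of all genes. The X median was -0.12 without replicate 1 of clone 2 and -0.33 without replicate 2, since relative to the TET2-WT mean these libraries lay at -0.22 and 0.00. The chromosome 9 median was 0.12 after the loess correction, beside -0.07 over all genes. These 5 medians kept their sign in every alternative fit, with 0.11 the smallest size on chromosomes 8 and 9. In 278 runs of 50 neighbouring genes the medians had an SD of 0.13. The lowest, -0.45 and -0.42, were adjacent on chromosome 19, between 4800569 and 7241183, with 43 and 37 of 50 genes below 0. Replicate 1 of clone 1 lay close to 0 in both runs (0.02 and 0.04 relative to the TET2-WT mean) and replicate 2 at 0.39 and 0.32, so the replicates of clone 1 also lay apart there. The first 4 runs of chromosome 8 lay between 0.26 and 0.34, with both replicates of each clone on the same side of 0. Copy number was not measured.

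**Figure D5:**
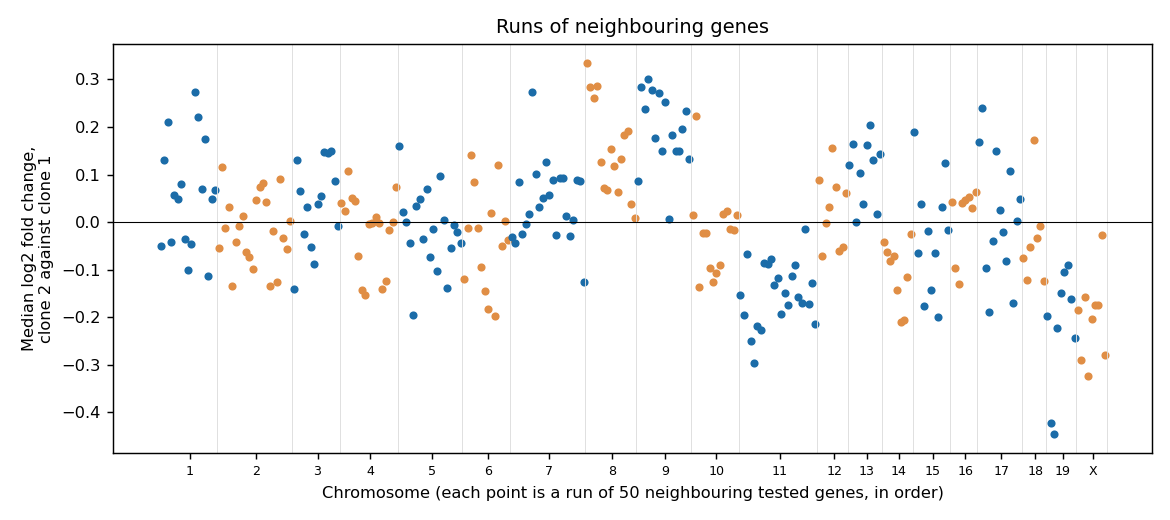
Median log2 fold change in clone 2 against clone 1 for runs of 50 neighbouring tested genes, in order along each chromosome, with colours alternating by chromosome. Every run of chromosomes 8 and 9 lies above 0 and every run of 11, 19 and X below 0, and the lowest run is at -0.45.

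The TET2-S97E clones place these differences on a wider scale, and are given as values because no test of their position was run. Among the 67 genes higher in clone 2, both TET2-S97E clone means lay between the TET2-WT clones in 15, and both lay above clone 2 in 11. Clone 1 was the lowest of the 4 clones in 48 and clone 2 the highest in 34. Among the 57 lower genes both lay between in 13 and both above clone 1 in 16, and clone 2 was the lowest of the 4 in 42. Cdc20 was of the latter kind, at 44.8 and 26.1 CPM in TET2-S97E clone 1 and 69.6 and 44.8 CPM in clone 2.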

How the data were processed

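Ribosomal-RNA-depleted total RNA of 4 TET2-WT libraries (2 clones, 2 replicates each) was compared, with 4 TET2-S97E libraries in the same fit. Per the submitters' processing notes and methods, the authors trimmed reads with Trim Galore 0.4.5, aligned them with STAR 2.5.3a to mm10 and counted them per gene with featureCounts 1.5.3; the strand setting is not given in the sources used here. The deposited values are raw counts per gene. Antisense and overlapping genes, and near-identical copies, are therefore uncertain.

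Genes were filtered by expression and tested with edgeR 4.0.16 (R 4.3.3) using TMM scaling, 1 mean per clone and the quasi-likelihood test, with Benjamini-Hochberg adjustment and a threshold of 0.05. CPM values are TMM-scaled. Totals ran from 21436505 to 37790358 counts, and the limit that a count of 0 allows, 3 counts, from 0.0794 to 0.137 CPM. On simulated data the test recovered 80 of 100 genes changed by 2 on the log2 scale and 41 of 100 changed by 1, with 5 false calls among 14145 genes. The simulated libraries were independent and their spread followed a trend over genes. They held no slope along gene length or GC content and no shift of a single library. These figures therefore do not measure how the test performs on the real libraries. Named genes were the edited and myogenic genes, the 12 called protein-coding genes with the largest fold in each direction (no overlap between the clones, and 100 or more counts in both libraries of the clone where they were higher), at most 3 called genes per list (or the 1 with the lowest p), nearly silent genes, and at most 3 per chromosome. Further list members are named as examples and were chosen after their values were seen. Alternatives were DESeq2 1.42.0, 2 other scalings, 2 other filters, the TET2-WT libraries alone, a loess correction for exon length and GC content, a replicate block, a log2 threshold of 1, removal of mitochondrial and abundant noncoding RNAs, and leaving out each library; a clone left with 1 library was assumed to vary like the other clones. The members and the 40 lists were chosen with earlier results of these data known.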

Additional observations from a re-analysis of the deposited data

How the results depend on the processing

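The counts of 67 genes higher and 57 lower in clone 2 depended on the fit, while all of these genes that were fitted kept their direction in every alternative. They were 646 and 339 with the TET2-WT libraries alone, 1101 and 526 with no filter on low counts, and 507 and 387 in DESeq2. The fit with no filter shared the spread wholly across genes, so its counts leave out each gene's own spread between replicates. With the replicate block they were 360 and 317, and with the block and the loess correction together 442 and 564. In the 24 lists without a call the block called 20 of 523 genes, and 44 with the loess correction. These included 3 (10) lower of DNA replication and 0 (4) higher of the sarcomere, the second number with the loess correction. Myog passed in both fits (adjusted p = 0.0347 and 0.0136). The block called 26 of 30 mitosis and spindle and 13 of 23 cholesterol biosynthesis genes lower. Of the 20 tested markers of other cell types, the block called 1 lower, and 1 with the loess correction. The majority turned from higher to lower with the loess correction alone (74 and 85) and with both, and not with the block alone. The median over all genes also moved, to -0.07 with the loess correction alone and -0.08 with both. The deviations of same-numbered libraries correlated at r = 0.0391 between the TET2-WT clones, 0.102 and -0.0214 between TET2-WT clone 1 and the TET2-S97E clones, 0.393 and 0.441 between TET2-WT clone 2 and the TET2-S97E clones, and 0.506 between the TET2-S97E clones. No label says what the number marks, and the pairing was not used in the tests reported. Leaving out 1 library at a time gave between 0 and 113 higher and between 0 and 27 lower. Other scalings, the stricter filter, the loess correction alone, the log2 threshold and the removal of mitochondrial and abundant noncoding RNAs left both counts within 1.5 times. Pax7, at -0.86, turned to 0.36 without replicate 2 of clone 1 and ran from -1.36 to 0.36 over the left-out libraries. Of the 94 named genes, 45 and 47 fell outside the threshold without replicate 1 or 2 of clone 1, and 18 and 34 without replicate 1 or 2 of clone 2. The cause was not tested. With 2 libraries per clone, the spread is borrowed from the other clones, and depth leaves genes of a few counts, such as Pax7 and Myf6, without a detectable difference.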
